A study of Mus musculus with 2 samples.

Results

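The 34 genes described here encode the enzymes of cholesterol synthesis, the enzymes of fatty acid synthesis and desaturation, and the proteins that regulate both through the sterol regulatory element-binding proteins (SREBPs). They were taken from a list of gene functions and found on the arrays by their RefSeq accessions, and they make up 34 of the 20658 named genes. The list was chosen with earlier results of these data known, so that counts of its genes are a description and not an independent test. Of the 34 genes, 18 belong to the sterol branch, 10 to the fatty acid branch and 6 to regulation and sterol transport. The arrays carry 49 probes for them, each printed as 1 spot. By the criterion of the image analysis software, 48 of the 49 probes, and at least 1 for each of the 34 genes, were well above background on both arrays. The probe that was not, one of 3 for Acaca, is left out. The dimmest probe retained, a second one for Fdft1, gave 28.8 signal units with the TKR agonists and 23.2 with the TKR antagonists, where the lowest signals counted as well above background were 18.1 and 19.9.

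The samples were ovary pieces of mice aged 2 weeks after 3 days in culture with ligands of the tachykinin receptors (TKRs), a family of neuropeptide receptors. The agonists were [Sar9, Met(O2)11]-SP for TACR1, GR-64349 for TACR2 and a succinylated fragment of substance P for TACR3, and the antagonists were GR-94800 for TACR2, SB218795 for TACR3 and a compound against TACR1, each at 1 μM. Each treatment had 1 single-colour array on the same slide, and the sources used here do not say which strain and genotype the mice had or how many ovaries were behind each RNA. For culture the paper cut ovaries lengthwise into 2 symmetrical pieces, to limit errors from the use of different ovaries. Whether both arrays hold matching pieces of the same ovaries is not stated. Untreated ovaries were not analysed here, and with 1 array per treatment the difference has no replicate check and no p-value. A difference between the pieces of tissue therefore cannot be told apart from one between the ligands.

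Cholesterol is built from acetyl-CoA through mevalonate, farnesyl diphosphate, squalene and lanosterol, and fatty acids are built from the same acetyl-CoA through malonyl-CoA. SREBPs are transcription factors held in the membrane of the endoplasmic reticulum. When sterols are scarce, the escort protein SCAP carries them to the Golgi, where they are cut and released to the nucleus, and when sterols are plentiful the INSIG proteins hold SCAP back. SREBP-2 acts mainly on the genes of cholesterol synthesis and SREBP-1c mainly on those of fatty acid synthesis. In the ovary, cholesterol is the substrate of steroid hormones, and growing follicles need sterols and fatty acids for new membranes.

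A log2 ratio below is the scaled log2 signal with TKR agonists minus that with TKR antagonists, so that -1 stands for a level 2-fold lower with the agonists. Signals were scaled on the 75th percentile of each array, which was at 672 signal units with the TKR agonists and at 569 with the TKR antagonists. The reference for the values that follow is the median log2 ratio of the 15258 named genes that were well above background on each array, -0.10. Without scaling this median was 0.15, a shift that every gene shares. The error of a member's log2 ratio, from the error that the image analysis software gives each spot, lay between 0.20 and 0.25. Among 282 probes printed at several spots, the log2 ratio had an SD between spots of 0.07 in the median. Both describe the measurement of a spot and not the spread between ovaries.

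The sterol branch was lower with the TKR agonists, whereas the fatty acid branch was mixed. The median log2 ratio of the 18 sterol genes was -0.47 (quartiles -0.72 and -0.37), or -0.37 relative to the median of all genes. All 18 had a log2 ratio below 0, as did 62.3% of all genes, and 16 of the 18 lay below the median of all genes. At least 1.5-fold lower with the agonists were 7 of the 18 sterol genes, 1 of the 10 fatty acid genes and 0 of the 6 genes of regulation and transport, against 4.28% of all genes. The median of the fatty acid branch was -0.11, close to that of all genes, with values from -0.73 for Scd2 to 0.80 for Scd1. Only Scd1 among the 34 genes was at least 1.5-fold higher, against 9.26% of all genes. These counts are relative to the scaling. Without scaling 15 of the 18 sterol genes still had a log2 ratio below 0, against 28.3% of all genes, and 3 of the 34 genes were at least 1.5-fold lower, against 1.29%.

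**Figure D1:**
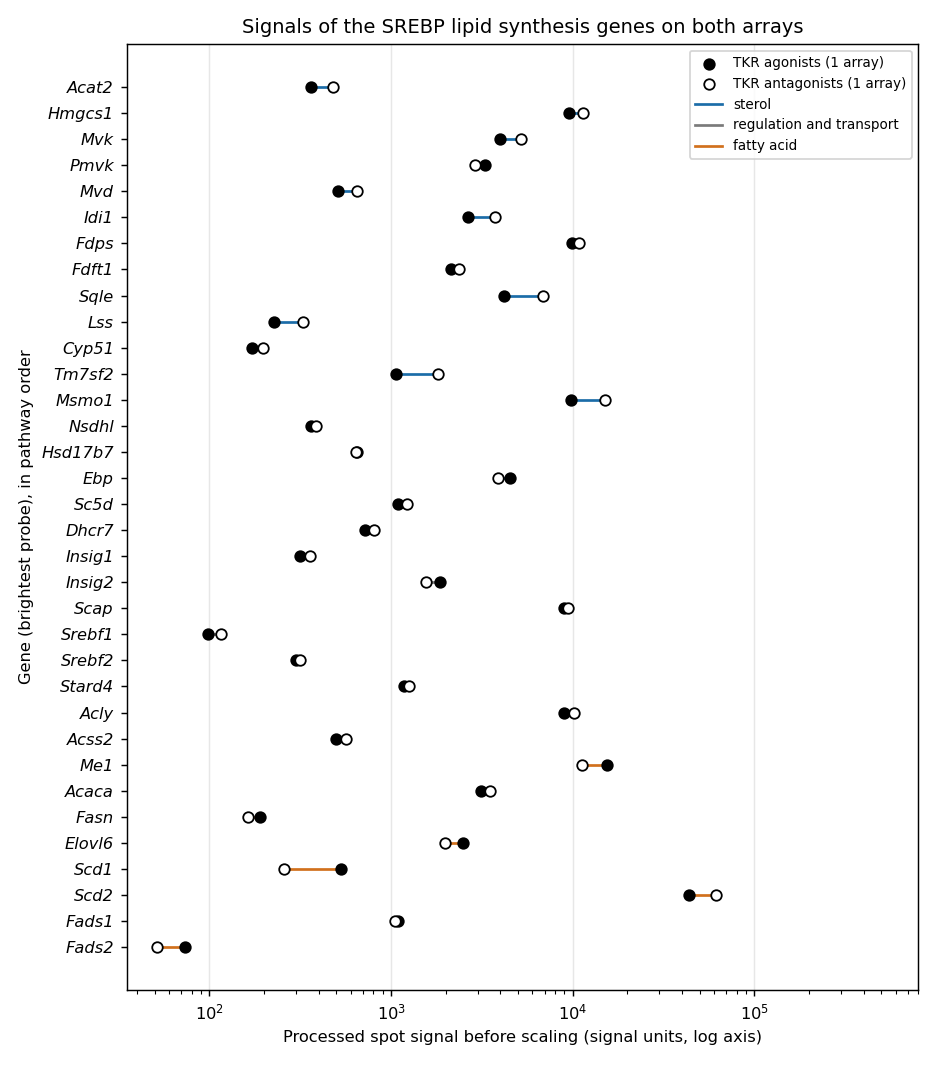
Processed signal of each of the 34 genes (brightest probe, rows in pathway order) before scaling, on a log axis in signal units; filled points are the TKR agonist array, open points the TKR antagonist array, and line colours mark the branches. The agonist signal was the lower one for 24 of the 34 genes, against 28.3% of all genes. Sqle, Tm7sf2 and Msmo1 have wide gaps in that direction while Scd1 and Me1 have gaps in the other. All gaps include the shift between the arrays, a median log2 ratio of 0.15 over all genes before scaling.

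The mevalonate pathway leads from acetyl-CoA to farnesyl diphosphate, and its 7 genes had a median log2 ratio of -0.58. Idi1, which encodes isopentenyl diphosphate isomerase, gave 2648 signal units with the agonists and 3748 with the antagonists. The agonist signal was the lower one, with a log2 ratio of -0.74 ± 0.20 (software error of the spots), or 1.67-fold lower after scaling, and 1.99% of all genes had a ratio as low. Acat2, which forms acetoacetyl-CoA in the cytosol, gave 364 and 479 (log2 ratio -0.64). Mevalonate kinase, Mvk, gave 3959 and 5173 (-0.63), and its second probe gave -0.70. These 3 genes passed the 1.5-fold limit, and Mvd, which decarboxylates mevalonate diphosphate, lay just short of it with 511 and 647 signal units (-0.58). Hmgcs1, the cytosolic HMG-CoA synthase, gave 9582 and 11428 (-0.50). Farnesyl diphosphate synthase, Fdps, gave 9961 and 10883 (-0.37). All these genes were lower on the agonist array before and after scaling. Pmvk, the kinase of the step between Mvk and Mvd, did not share this pattern. It gave 3274 signal units with the agonists and 2887 with the antagonists (log2 ratio -0.06), and its second probe gave -0.15. Its log2 ratio lay above the median of all genes and its sign changed with the scaling, reaching 0.19 with spike-in scaling.

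The 3 enzymes that turn farnesyl diphosphate into lanosterol had a median log2 ratio of -0.77. Sqle encodes squalene epoxidase, a control point of the pathway. It gave 4190 signal units with the agonists and 6885 with the antagonists. The agonist signal was the lower, at a log2 ratio of -0.96 ± 0.20, or 1.94-fold lower, and 0.708% of all genes had a ratio as low. Lanosterol synthase, Lss, gave 227 and 328 (log2 ratio -0.77, 1.71-fold lower). Squalene synthase, Fdft1, gave 2143 and 2357 (log2 ratio -0.38). Its second probe was at the dim end of the array with a log2 ratio of 0.07, so that the probes of Fdft1 differed in sign, by 0.45 on the log2 scale.

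The 8 genes of the steps from lanosterol to cholesterol spanned the whole range of the branch, with a median log2 ratio of -0.40. Tm7sf2, a sterol reductase, gave 1067 signal units with the agonists and 1806 with the antagonists. It was lower with the agonists at both of its probes, with log2 ratios of -1.001 ± 0.20 and, at a dimmer probe with 193 and 282 signal units, -0.79. It was the only one of the 34 genes at least 2-fold lower, against 0.577% of all genes, but it passed that limit only just. Its log2 ratio was between -0.93 and -0.75 without scaling and with spike-in, quantile, loess and detected-probe scaling, the normexp correction, the authors' summary values and the mean over probes, so that the 2-fold call is lost there. With scaling on the median it was -1.06, and Sqle then passed the limit too at -1.01. Msmo1, the methylsterol oxidase also known as Sc4mol, gave 9760 and 15058 (log2 ratio -0.87, 1.82-fold lower). Lanosterol demethylase, Cyp51, gave 171 and 197 (-0.45). Dhcr7, which carries out the last reduction to cholesterol, gave 718 and 803 (-0.40), and the desaturase Sc5d gave 1098 and 1216 (-0.39). These genes had a lower signal with the agonists also before scaling. Nsdhl, a sterol dehydrogenase, gave 364 and 384 (-0.32), and its second probe gave 0.02. The ketoreductase Hsd17b7 gave 648 and 643 (-0.23), with -0.05 at its second probe. The isomerase Ebp gave 4501 and 3867 (-0.02), so that it lay above the median of all genes, as Pmvk did. The signs of Hsd17b7 and Ebp changed with the scaling, and without scaling their log2 ratios were 0.01 and 0.22. Along the whole pathway, the sterol genes past the 1.5-fold limit were Acat2, Mvk, Idi1, Sqle, Lss, Tm7sf2 and Msmo1, and the values nearest to 0 were those of Pmvk, Hsd17b7 and Ebp.

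**Figure D2:**
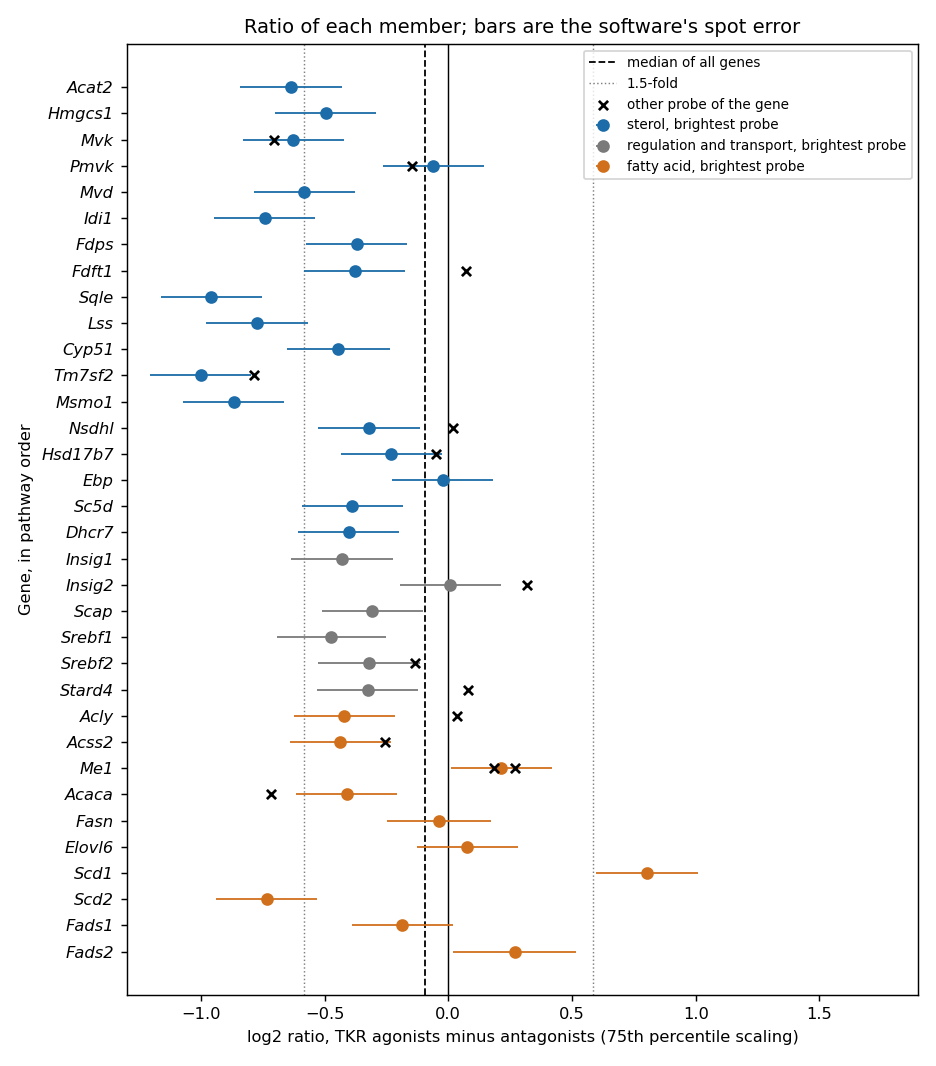
log2 ratio of each gene (x axis; TKR agonists minus antagonists, 75th percentile scaling), rows in pathway order; coloured points are the brightest probe with the software's error of the spots as bars, crosses are the other probes, the dashed line is the median of all genes (-0.10) and dotted lines mark 1.5-fold. All sterol points lie left of 0, down to -1.001 for Tm7sf2, and the fatty acid points lie on both sides, from -0.73 for Scd2 to 0.80 for Scd1.

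The start regions of 4 sterol genes are printed here as examples, and they hold motifs of factors that work with SREBPs. A part of these motifs in the log2 ratios was not tested. Hmgcs1 was taken for its sterol element, and Idi1, Msmo1 and Tm7sf2 as examples of genes with low log2 ratios. Lss, also low at -0.77, has a start region too but is not printed. The sequences are the 250 bases before the RefSeq start on GRCm38.p6, 5′ to 3′ on the strand of the gene, and capitals mark every match of the searched letters on either strand: the sterol element TCACNCCAC, the E-box CACGTG, the CCAAT box (CCAAT, or ATTGG on the other strand) bound by NF-Y, and the GC box (GGGCGG, or CCGCCC on the other strand) bound by Sp1.
Hmgcs1, chr13:119690101-119690350, plus strand: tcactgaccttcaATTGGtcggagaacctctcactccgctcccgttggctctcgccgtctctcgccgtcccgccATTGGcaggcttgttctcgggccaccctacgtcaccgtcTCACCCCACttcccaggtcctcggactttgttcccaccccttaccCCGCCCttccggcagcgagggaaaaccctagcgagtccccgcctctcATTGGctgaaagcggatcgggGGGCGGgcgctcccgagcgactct
Idi1, chr13:8885356-8885605, plus strand: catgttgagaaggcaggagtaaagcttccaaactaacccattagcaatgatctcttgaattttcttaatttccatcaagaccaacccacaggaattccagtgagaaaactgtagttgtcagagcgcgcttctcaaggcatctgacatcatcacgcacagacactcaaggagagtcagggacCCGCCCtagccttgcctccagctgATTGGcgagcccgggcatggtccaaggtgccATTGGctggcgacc
Msmo1, chr8:64733579-64733828, minus strand: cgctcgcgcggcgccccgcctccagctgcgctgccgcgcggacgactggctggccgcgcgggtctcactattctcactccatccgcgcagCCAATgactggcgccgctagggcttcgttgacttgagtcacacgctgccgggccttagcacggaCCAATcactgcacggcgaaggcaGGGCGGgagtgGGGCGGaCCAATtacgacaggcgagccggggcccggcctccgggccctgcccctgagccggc
Tm7sf2, chr19:6067851-6068100, minus strand: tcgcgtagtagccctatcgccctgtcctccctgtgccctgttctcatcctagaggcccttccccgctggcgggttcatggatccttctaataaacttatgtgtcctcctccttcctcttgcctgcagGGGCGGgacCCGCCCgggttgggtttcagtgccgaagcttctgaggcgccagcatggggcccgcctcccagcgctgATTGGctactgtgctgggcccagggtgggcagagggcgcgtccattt

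In the Hmgcs1 start region the sterol element began 137 bases before the start, between CCAAT boxes, with the nearest of these beginning 45 bases before the start. The start regions of Idi1, Msmo1 and Tm7sf2 held no match to the sterol element letters, but each held a CCAAT box, at 14, 55 and 47 bases for the nearest, and a GC box. RefSeq start regions, 250 bases before to 50 after a start, were found for 27 of the 34 genes, 15 of them in the sterol branch. Of these 15, 14 held a CCAAT box, against 41.1% of the 27025 genes with a start region, and 14 held a GC box, against 38.2%. The E-box occurred in 3 of the 15, against 8.09% of all, and the sterol element in 1, against 1.44%. The 27025 genes include genes not detected on these arrays, and the shares among detected genes were not computed. In the fatty acid branch 4 of 7 held a CCAAT box, 4 of 7 a GC box and 0 an E-box. Among the genes of regulation and transport, of which 0 were 1.5-fold lower, 4 of 5 held a CCAAT box, 5 of 5 a GC box and 2 an E-box. Of the 6 genes with a start region that were at least 1.5-fold lower, 5 held a CCAAT box, 6 a GC box, 0 an E-box and 0 the sterol element. Ebp, with a log2 ratio near that of all genes, held both motifs too. These matches are letters in a window and not sites shown to be bound.

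Among the regulators, Insig1 and Insig2 differed. Both encode membrane proteins that hold SCAP and SREBP in the endoplasmic reticulum, and Insig1 is itself a target of SREBPs. Insig1 gave 315 signal units with the agonists and 359 with the antagonists, whereas Insig2 gave 1851 and 1558. Insig1 was thus the lower and Insig2 the higher with the agonists before scaling, and after scaling the log2 ratios were -0.43 and 0.01. The second Insig2 probe, designed on another accession, gave 578 and 392 signal units and a log2 ratio of 0.32. The log2 ratio of Insig1 minus that of Insig2 was -0.44, with an error of 0.29 from the software, and it lay between -0.59 and -0.44 in the 14 settings that measured both. Only quantile normalization, loess, the normexp correction and the mean over probes could change this difference, since a constant shift of an array drops out of it. The transcription factor gene Srebf1 gave 98.2 and 115 (log2 ratio -0.47), and Srebf2 gave 299 and 316 (-0.32, and -0.13 at its second probe). The escort gene Scap gave 8999 and 9412 (-0.31). Stard4, a carrier of cholesterol between membranes and a known SREBP-2 target, gave 1181 and 1251 (-0.32), with 0.08 at its second probe. None of these 6 genes was 1.5-fold apart, and their median log2 ratio was -0.32.

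In the fatty acid branch, the stearoyl-CoA desaturases Scd1 and Scd2 went in opposite directions. Both enzymes put the first double bond into saturated fatty acids. Scd1 gave 532 signal units with the agonists and 258 with the antagonists, and Scd2 gave 43605 and 61314. Scd1 was the higher and Scd2 the lower on the agonist array. Their log2 ratios were 0.80 ± 0.21 and -0.73 ± 0.20, or 1.74-fold higher and 1.66-fold lower, and 5.92% of all genes had a ratio as high as that of Scd1 and 2.06% a ratio as low as that of Scd2. The difference between them was 1.54 on the log2 scale, with an error of 0.29 from the software, and it lay between 1.39 and 1.54 in the 14 settings that measured both genes. A constant shift of an array drops out of this difference. Only quantile normalization, loess and the normexp correction could change it, so the other settings are no check. Each rests on 1 spot per array, and the files do not hold the probe sequences, so that a share of signal from the paralog was not tested.

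None of the 3 genes that supply acetyl-CoA and NADPH was 1.5-fold apart. ATP citrate lyase, Acly, gave 8925 signal units with the agonists and 10103 with the antagonists (log2 ratio -0.42). A second, dim Acly probe gave 0.04, and the mean over both probes was -0.19. Acetyl-CoA synthetase, Acss2, gave 495 and 567 (-0.44), with -0.25 at its second probe. Malic enzyme, Me1, which makes NADPH, gave 15455 and 11274 (0.21). The agonist signal of Me1 was the higher one at all 3 of its probes, with log2 ratios between 0.18 and 0.27. Acetyl-CoA carboxylase, Acaca, which commits acetyl-CoA to fatty acids, gave 3113 and 3499 (-0.41), and a second, dim probe gave 44.2 and 61.5 (-0.72). Fatty acid synthase, Fasn, gave 189 and 164 (-0.04), and the elongase Elovl6 gave 2484 and 1991 (0.08). The desaturases of polyunsaturated fatty acids were Fads1, with 1090 and 1049 (-0.19), and Fads2, with 73.3 and 51.5 (0.27). Fads2 was the dimmest of the 34 genes and turned to -0.17 with the normexp background correction. The signs of Fasn and Fads1 changed without scaling, where they had 0.20 and 0.06. The log2 ratios of 6 of the 10 genes, Scd2, Acss2, Acly, Acaca, Fads1 and Fasn, lay inside the range of the sterol genes, from -1.001 to -0.023, and 5 of the 10 genes of this branch lay below the median of all genes.

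The difference between the branches does not depend on a constant scaling. The sterol median minus the fatty acid median was -0.36 on the log2 scale, and it lay between -0.36 and -0.15 in the 15 kinds of processing tried. Many of these kinds could not change it. Only quantile normalization, loess, the normexp correction, the mean over probes and the filter for bright signals could. The value nearest to 0 came when only signals at or over the 75th percentile were retained, where Scd1, Fasn, Fads2 and Acss2 drop out of the fatty acid branch and 23 of the 34 genes are left. The summed scaled signals of the branches did not show this difference. Agonists over antagonists, their log2 ratio was -0.56 for the sterol branch and -0.49 for the fatty acid branch, whose brightest gene is Scd2. This is a description, since genes on a pair of arrays are not replicates of the treatment. With several probes for 13 of the genes, the ratio could be checked within a gene. The probes of a gene differed by a median of 0.21 on the log2 scale and by at most 0.46, the difference in Acly. In 4 genes, Fdft1, Nsdhl, Stard4 and Acly, the probes differed in sign.

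**Figure D3:**
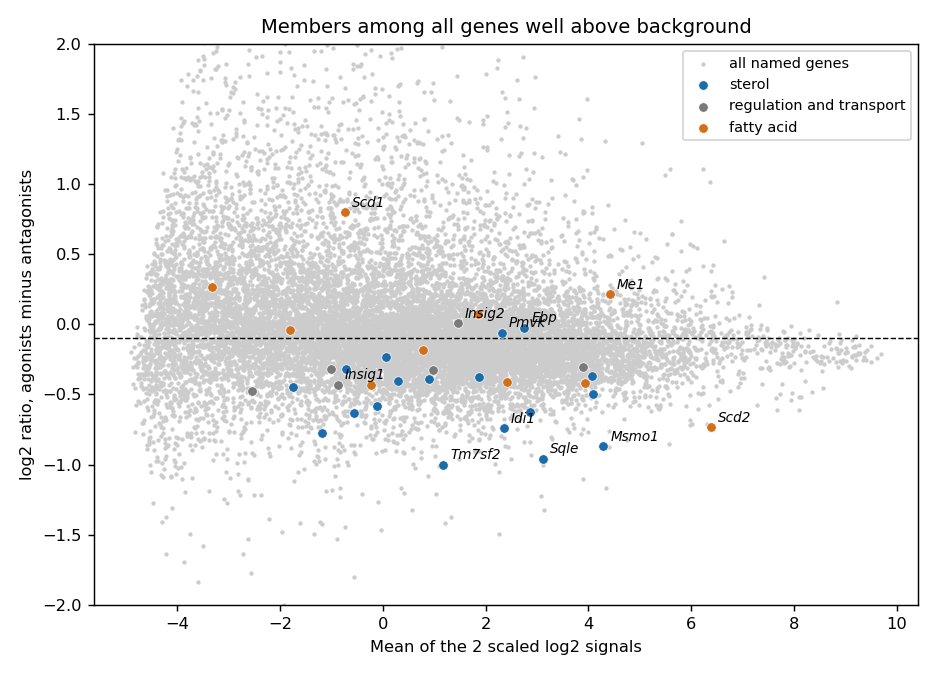
log2 ratio (y axis; TKR agonists minus antagonists) against the mean of both scaled log2 signals (x axis) for the 15258 named genes well above background on both arrays (grey) and the 34 members (coloured by branch); the dashed line is the median of all genes, and 113 grey genes lie outside the plotted range of 2 in either direction. Sqle, Msmo1 and Scd2 are bright and lie at the lower edge of the cloud at their signal level, and Scd1 lies in its upper part.

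Other genes of sterol and lipid handling were read from a list of 48, and 0 of them were at least 1.5-fold lower with the agonists, against 4.28% of all genes. Their median log2 ratio was -0.14. The 9 genes of SREBP processing and sterol sensing and of its partner factors had a median of -0.19, and the 10 genes of the isoprenoid branch, which uses the same farnesyl diphosphate for protein prenylation and ubiquinone, had -0.20. The 17 other sterol-responsive or lipogenic genes had -0.19. The 12 genes of cholesterol export, esterification and LXR had a median nearer to 0, at -0.0051, with 6 above 0 and 3 below the median of all genes. The lowest values were those of Nceh1, which hydrolyses cholesterol esters (-0.55), Acsl3, an acyl-CoA synthetase (-0.46), and Rnf139, a ubiquitin ligase of the endoplasmic reticulum (-0.43). The highest were those of Nr1h3, the gene of the oxysterol receptor LXRα, of Acacb, the acetyl-CoA carboxylase of mitochondria, and of Abcg1, a cholesterol exporter. Nr1h3 gave 1670 signal units with the agonists and 575 with the antagonists (log2 ratio 1.30), Acacb gave 1384 and 684 (0.78), and Abcg1 gave 1445 and 853 (0.52). Nr1h3 and Acacb were the 2 of these 48 genes that were at least 1.5-fold higher, a share below the 9.26% of all genes. Macrophages express Nr1h3 and Abcg1 strongly, and all 6 macrophage markers measured were higher with the agonists (median log2 ratio 0.99), with 5 of them at least 1.5-fold higher. The brightest, Csf1r, gave 0.15 and C1qa 1.18. The part of these cells in the values of Nr1h3 and Abcg1 was not tested.

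Lists of other functions stood beside the sterol branch. Of all genes, 62.3% had a log2 ratio below 0 and 4.28% were at least 1.5-fold lower. In the list of proliferation genes 16 of 16 measured genes had a log2 ratio below 0, with a median of -0.51 and 7 at least 1.5-fold lower. In the list of amino acid stress genes under ATF4 the median was -0.69 and 8 of 12 were 1.5-fold lower. The values of the sterol branch, -0.47 and 7 of 18, lay beside those of these lists. The 9 steroidogenic genes, which use the cholesterol, had a median of -0.17 with 5 below 0, close to the share of all genes. Hsd3b1 and Cyp17a1, the brightest of them, had 0.21 and -0.41. Of the cell type markers, those of granulosa cells had a median of -0.47, as the sterol branch did. Of these 8 genes, 6 were below 0 and 3 were at least 1.5-fold lower, against 62.3% and 4.28% of all genes. The summed scaled signal of these markers was 100.1 with the agonists against 131 with the antagonists. Their brightest genes, Inha and Foxl2, had -0.68 and 0.32. For theca cells the median was -0.10 and for oocytes 0.17, whereas the markers of surface epithelium (1.01, 6 of 6 above 0), smooth muscle (0.71, 4 of 4), endothelium (0.48, 4 of 5) and stroma (0.34, 4 of 5) were higher. Of all 15258 genes, 5750 had a log2 ratio above 0. In bulk tissue, fewer cells of a type and less RNA per cell cannot be told apart, and the part of the cell types in the ratios of the 34 genes was not tested.

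Adipocytes express Scd1, Fasn, Acly and Me1 strongly. Of their defining markers, Adipoq and Lep were not well above background on either array, while Cidec reached that level with the agonists alone and Cfd with the antagonists alone. Of the 4 of 8 adipocyte markers measured on both arrays, Pparg, which granulosa cells also express, had a log2 ratio of 0.24, Plin1 had 0.59, Retn had -0.79 and Fabp4, which endothelium and macrophages also express, had 3.82. Their signal, scaled and summed, was 6.13 on the agonist array against 4.38. Of 4 liver markers, Alb was not well above background on either array, whereas Apoa1 gave 296 signal units with the agonists and 502 on the other array (log2 ratio -1.001), Serpina1a gave 154 and 36.0 (1.86) and Ttr gave 30.2 and 28.7 (-0.17).

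**Figure D4:**
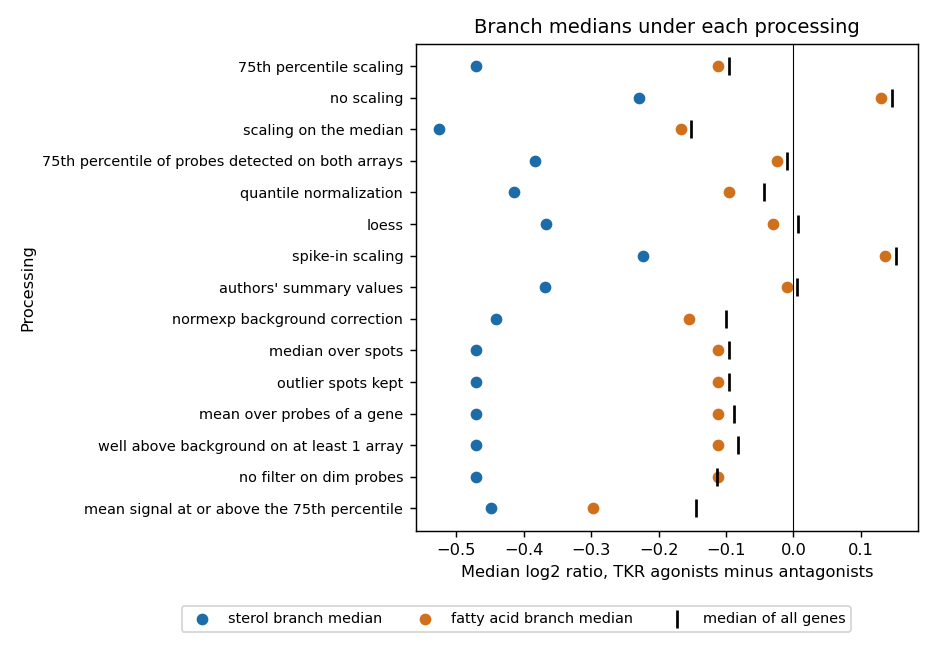
Median log2 ratio (x axis; TKR agonists minus antagonists) of the 18 sterol genes, the 10 fatty acid genes and all genes under each of 15 kinds of processing (rows); points and ticks are medians over genes, with no error since there is 1 array per treatment. The sterol median is below 0 in every row, between -0.53 and -0.22, and the fatty acid median lies near the median of all genes in every row but the last.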

How the data were processed

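Gene expression was measured in ovaries of mice aged 2 weeks after culture for 3 days with TKR agonists (1 array) or TKR antagonists (1 array), labelled with Cy3. The authors deposited the scanner output of Agilent Feature Extraction 10.10.1.1, which gives each spot a linear intensity, corrected for background by the software and not scaled between arrays, and a table that equals this intensity times a constant per array (largest relative deviation 4.97e-10). The array was designed on another assembly than the RefSeq tables of GRCm38, which were used for names and start regions only.

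Control spots and spots marked as outliers were left out. The log2 intensity was reduced by the 75th percentile of all spots of its array that are not controls, spots of a probe were averaged, and a probe was taken as well above background when more than 50% of its spots carried that mark. RefSeq accessions gave 27230 of 55674 probes a symbol, and a gene was represented by its brightest probe. No test was possible with 1 array per group. The number of arrays limits the precision. The members and lists were chosen with earlier results of these data known. The text names every member, the 3 companion genes of largest log2 ratio in each direction and the 2 brightest genes of some other lists; other marker genes were named after their values were seen. The calculation was tested on simulated data. Python 3.11.15, numpy 2.4.6, pandas 2.3.3, matplotlib 3.10.9 and R 4.3.3 with limma 3.58.1 were used, limma for the normexp (offset 50) and loess (span 0.3) alternatives.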

Additional observations from a re-analysis of the deposited data

How the results depend on the processing

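No paired analysis was possible because a single array stands for each treatment. The sterol median, -0.47, stayed below 0 in all 15 settings and was -0.23 without any scaling and -0.22 when scaled on spike-ins. The fatty acid median, -0.11, was 0.13 and 0.14 under the same choices. The difference between them became -0.15 with only signals at or over the 75th percentile retained. The number of genes at least 1.5-fold lower, 8, was 3 without any scaling, 3 on spike-ins, 5 after loess and 1 at the 2-fold limit. The number at least 1.5-fold higher, 1, became 0 with only bright probes, where Scd1 is not measured, and 0 at the 2-fold limit. Leaving out the scaling or using spike-ins adds a constant to every log2 ratio. Of 465 values of single genes under the alternatives, 396 moved by less than the software's error of the spots or not at all, and 66 moved by more. Another 3 with a main value beyond that error took the other sign: Hsd17b7 unscaled (0.011) and on spike-ins (0.016), and Fads2 with normexp (-0.17). Counting also main values within the error of 0, 25 values of 7 genes changed sign, 22 of these under another scaling. Signal over background limits Fads2 and the second probes of Fdft1 and Acly. Many of the 396 values could not move, so their number is no measure of robustness. Every member has 1 spot per probe, so the median over spots could not change it. Keeping outlier spots and the looser background filters also left every member value and branch median as it was. Retaining only bright signals drops genes but changes no value of the 23 left. The mean over probes can change only the 13 genes with several probes.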
